A study of Mus musculus with 48 samples.

Results

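The 35 genes described here encode the folding, quality control and export machinery of the endoplasmic reticulum (ER) and the sensors and transcription factors of ER stress. They were chosen by symbol from a fixed list, and all 35 were found among the 55401 genes of the count table. They fell into 6 groups by role: 10 chaperones and co-chaperones, 5 disulfide isomerases and related proteins, 4 stress sensors, 4 stress transcription factors, 6 genes of ER-associated degradation and 6 genes of translocation and export. With the filter on low counts, 34 were tested among 14618 genes. *Trib3*, a pseudokinase gene induced late in ER stress, did not pass, with 0 to 8 counts per mouse. The counts came from colon tissue of 48 mice, 4 per genotype at each of 6 circadian times (CT1, CT5, CT9, CT13, CT17 and CT21). Bmal1iec-/- mice were Bmal1fl/fl mice that carried 1 copy of Villin CRE, which drives the deletion of the clock gene *Bmal1* in intestinal epithelial cells, and Bmal1fl/fl mice, with the floxed gene and Villin wt/wt, were their control littermates. All were males on a C57BL/6J background, and the methods of the study give 18 to 20 weeks as the age and the second day of darkness as the time at which they were killed. The circadian night, in which mice are active, is represented by CT13, CT17 and CT21, and the day by the 3 earlier times. The tissue also holds muscle, stroma and immune cells, in which the gene was not deleted. In such bulk samples, fewer cells of a type and less RNA per cell cannot be told apart.

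Secreted and membrane proteins enter the ER through the SEC61 channel, fold with the help of chaperones and disulfide isomerases, and leave in COPII vesicles. Proteins that fail to fold are drawn back into the cytosol and degraded. When unfolded proteins build up, the sensors IRE1 (its widespread form encoded by *Ern1* and its form of mucosal epithelia by *Ern2*), PERK (*Eif2ak3*) and ATF6 start the unfolded protein response, in which IRE1 splices *Xbp1* mRNA, PERK favours the translation of ATF4, and cleaved ATF6 enters the nucleus, so that genes of chaperones and degradation are transcribed. In the colon the goblet cells, which secrete mucin, and the plasma cells, which secrete antibody, are known for a large ER. Counts per gene do not show splicing, translation or cleavage, so that the activity of the sensors was not measured.

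From 3144997 to 4785844 reads per mouse were counted on genes, and a gene without a count may still have had up to 3, by counting error alone. The mice of 1 group differed by more than sampling noise (chi-square per gene of 1.96 to 15.1 over 72 pairs), so all were kept as separate replicates. Replicates SV384 and SV385, both Bmal1iec-/- mice at CT1, stood apart. Their distance from the rest of their group, the root mean square over all genes tested on the log2 scale, was 0.512 and 0.678, against at most 0.485 in any other mouse, and SV385 held the lowest sum of 6 smooth muscle markers of all mice (3391 normalised counts, against 13517 to 21499 in Bmal1fl/fl mice). The pair also had the fewest genes with a count, 18697 in SV384 and 18285 in SV385, against at least 19577 in any other mouse. SV385 had the largest share of its counts in the top gene (4.80%) and in mitochondrial genes (7.41%). The size factors behind a table of the study fit the 46 mice that remain without this pair. The study's principal component analysis also held 46 colon samples, and its methods state that samples of low quality were removed, without naming them. Values are given here over all 48 mice, and results that rest on this pair also without it. *Arntl*, as the annotation calls *Bmal1*, had a log2 fold change (Bmal1iec-/- over Bmal1fl/fl, as for all fold changes here) of 0.22 (adjusted p = 0.458), but its rhythm differed (adjusted p = 9.4e-14). The clock genes *Nr1d1* and *Dbp* fell by 1.56 and 0.84 on the log2 scale (adjusted p = 2.04e-13 and 2.07e-05, edgeR's quasi-likelihood test), whereas *Per2* had a log2 fold change of 0.18 (adjusted p = 0.477). Markers of colon epithelium and goblet cells were high in all mice, and those of smooth muscle and fibroblasts in all mice but SV385. In SV385 the fibroblast markers summed to 1612 normalised counts, the lowest of all mice. Of 7 markers of the exocrine pancreas none passed the filter.

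Per length, the most abundant members were those that work in the ER lumen. In Bmal1fl/fl mice *P4hb*, a disulfide isomerase, stood at 346 ± 43.7 RPKM (SD, n = 24), the lectin chaperone *Calr* at 264 ± 77.0, the glycoprotein isomerase *Pdia3* at 247 ± 36.9 and *Hspa5*, which encodes the HSP70 chaperone BiP, at 152 ± 62.6 RPKM. The genes were measured in the same mice, and each SD includes the change over the day. Differences between neighbours in this order were not tested. *Xbp1*, at 103 ± 8.73 RPKM, was the most abundant of the transcription factors, ahead of *Atf4* at 77.8 ± 5.18 and *Ddit3*, which encodes CHOP, at 7.30 ± 1.72 RPKM. Among the sensors *Ern2* stood at 61.2 ± 9.45 RPKM, above *Ern1* at 8.46 ± 1.41, *Atf6* at 10.6 ± 1.05 and *Eif2ak3* at 10.2 ± 1.28 RPKM, which lay close together. *Derl3*, a degradation gene of secretory cells, reached only 1.36 ± 0.501 RPKM, with 4 to 18 counts per mouse, so that changes in it were hardly detectable at this depth.

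Members of the unfolded protein response are known to share the ER stress response element (ERSE, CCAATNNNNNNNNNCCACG), to which NF-Y binds through the left box and ATF6 or XBP1 through the right. Of the 35 members, 29 had a promoter window in RefSeq (GRCm38.p6, 250 bases before to 50 after the start site), and the other 6 (*Hyou1*, *Manf*, *Ern2*, *Atf6*, *Sec61a1* and *Sec11c*) were not searched. On either strand, 9 of the 29 (31.0%) held an ERSE, against 0.130% of 27025 genes with a window. The shorter form ERSE-II (ATTGGNCCACG) was found in *Herpud1* alone among the members and in 0.0370% of all genes. The E-box CACGTG, to which BMAL1 and CLOCK bind, was found in 5 of 29 members (17.2%), namely *Calr*, *Dnajb9*, *Derl3*, *Selenos* and *Ssr1*, against 6.86% of all genes. The UPRE (TGACGTGG) was found in *Sec24d* alone (0.603% of all genes), and the amino acid response motif TGATGNAA in *Herpud1* alone (3.91% of all genes). No motif holds another whole, but ERSE, ERSE-II and, on the other strand, the UPRE share the letters CCACG. A match is a description of letters, not of binding. The windows around the ERSE and ERSE-II are shown since the genes that hold one include *Hspa5*, *Calr* and other chaperones described below, and *Herpud1*; they are written 5′ to 3′ along the gene, with both conserved boxes in capitals (reversed and complemented where the element lies on the other strand):
Hspa5, chr2:34772013-34772055, plus strand: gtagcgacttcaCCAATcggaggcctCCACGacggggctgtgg
Hsp90b1, chr10:86705521-86705668, minus strand: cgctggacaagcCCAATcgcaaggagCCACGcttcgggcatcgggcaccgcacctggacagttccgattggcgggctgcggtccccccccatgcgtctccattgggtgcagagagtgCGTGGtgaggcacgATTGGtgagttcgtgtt
Calr, chr8:84847063-84847105, minus strand: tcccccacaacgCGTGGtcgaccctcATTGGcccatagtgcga
Canx, chr11:50325788-50325830, minus strand: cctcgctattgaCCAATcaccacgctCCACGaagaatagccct
Dnajc3, chr14:118937815-118937857, plus strand: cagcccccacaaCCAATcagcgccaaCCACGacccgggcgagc
Pdia6, chr12:17266479-17266521, plus strand: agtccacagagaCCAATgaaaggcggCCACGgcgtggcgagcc
Creld2, chr15:88819508-88819550, plus strand: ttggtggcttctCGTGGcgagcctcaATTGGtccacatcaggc
Syvn1, chr19:6046520-6046562, plus strand: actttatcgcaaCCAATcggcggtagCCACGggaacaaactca
Derl3, chr10:75893230-75893272, plus strand: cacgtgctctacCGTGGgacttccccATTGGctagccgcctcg
Herpud1, chr8:94386365-94386399, plus strand: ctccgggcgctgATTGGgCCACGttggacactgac

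The stretch of *Hsp90b1* holds 2 elements on opposite strands. In *Hspa5* the element lay 65 to 47 bases before the start site, in *Calr* 162 to 144 and in *Herpud1* 52 to 42 bases before it. The first 6 bases shown for *Derl3* are its E-box.

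In Bmal1fl/fl mice most of the ER genes followed the time of day. JTK_cycle, a rank test against a 24-h cosine, called 24 of 34 members rhythmic (q under 0.05 by Benjamini-Hochberg over all genes tested), where 40.5% of all genes tested were called. The 24 comprised 9 of 10 chaperones, 5 of 5 disulfide isomerases and related proteins, 2 of 4 sensors, 1 of 3 transcription factors, 3 of 6 degradation genes and 4 of 6 genes of translocation and export. The best phase lay between 16 and 22 h in 20 of the 24 (83.3%), against 26.9% of all 5915 rhythmic genes. It lay in the wider window of 12 to 24 h in 22 of the 24 (91.7%), against 50.1% of these genes. Of the 34 members, 15 had their highest group mean at CT17, 9 at CT13 and 7 at CT21, and 21 had their lowest at CT9. These counts include members not called rhythmic, and the matching shares over all genes tested are not given here. The median amplitude over the 24 was 0.31 on the log2 scale, against 0.29 over all rhythmic genes. The highest 4 members, *Hyou1*, *Creld2*, *Hspa5* and *Sdf2l1*, lay above 92.0% of rhythmic genes or more.

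**Figure D1:**
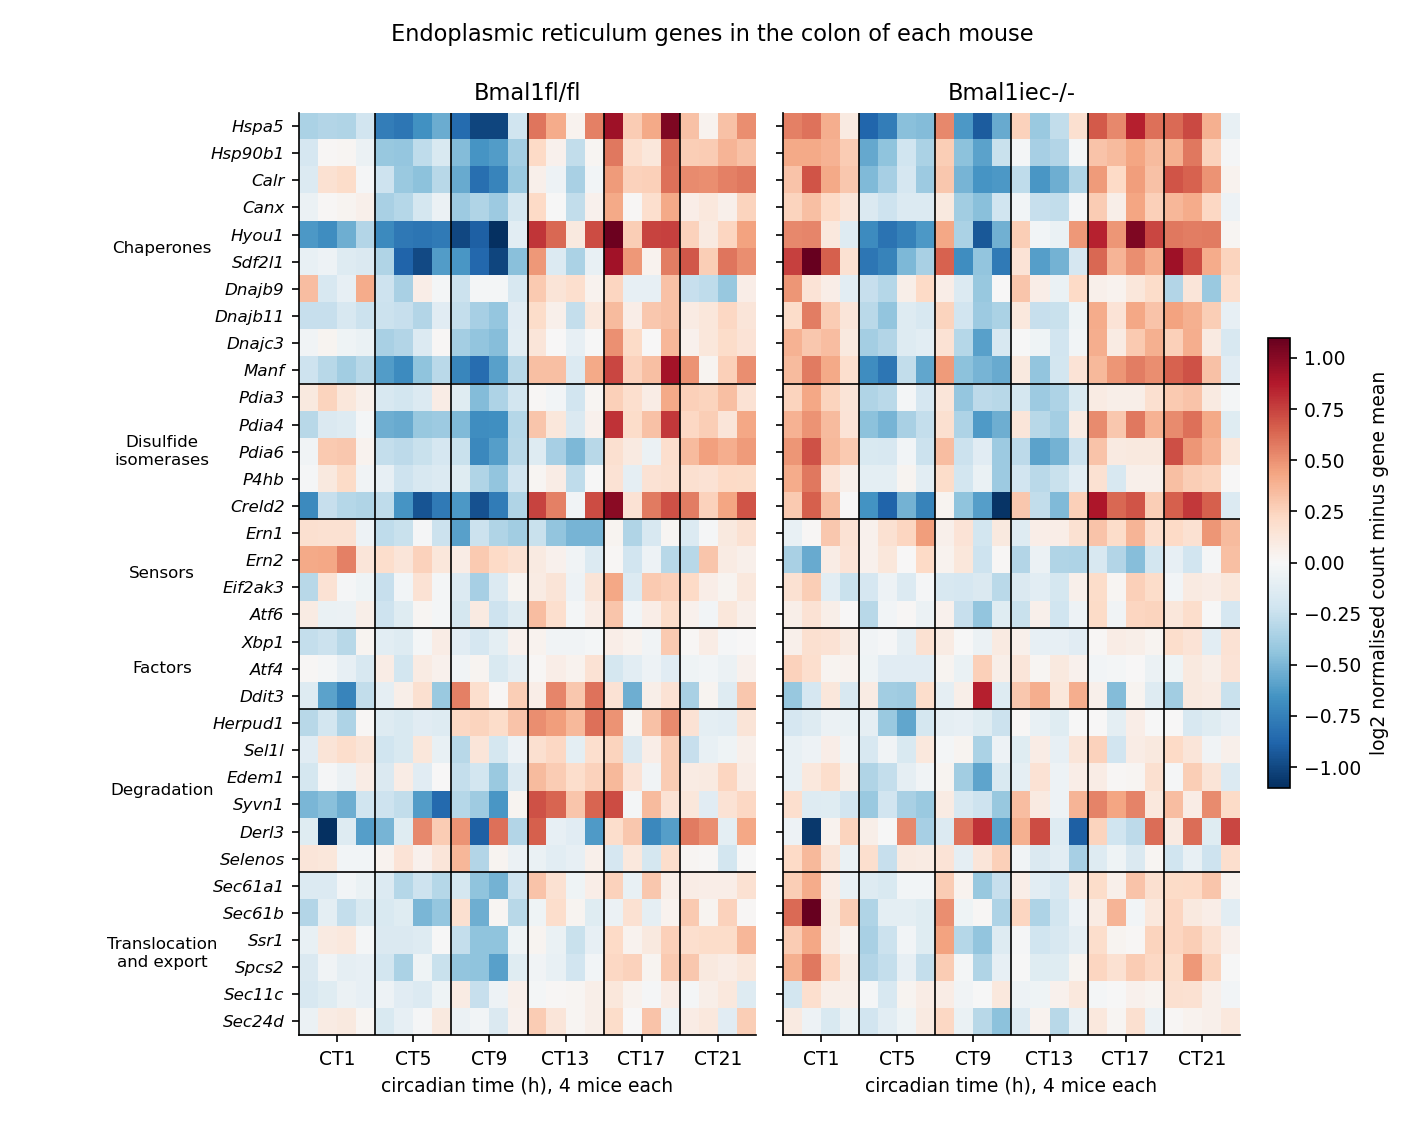
Heat map of 34 members (rows, by role) in the 48 mice (columns, 4 per circadian time), coloured by the log2 normalised count minus the mean of the gene over all mice, with colours ending at the limits of the scale bar. In Bmal1fl/fl mice most chaperones and isomerases are low (blue) at CT5 and CT9 and high (red) at CT17 and CT21, and in Bmal1iec-/- mice most of their cells at CT1 are red too, less so in the last of the 4 columns, SV384 and SV385 being the first 2.

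*Hspa5* (ENSMUSG00000026864.13; chromosome 2, 34771970 to 34777547, GRCm38) shows the pattern of the chaperones. Its normalised counts in the 4 Bmal1fl/fl mice were 1861, 1884, 1901 and 2055 at CT1, 1364, 1404, 1495 and 1627 at CT5 and 1178, 1179.6, 1319.5 and 2039.7 at CT9. At night they were 2437, 3156, 3486 and 3576 at CT13, 2873, 3159, 4533 and 4846 at CT17 and 2438, 2965, 2972 and 3370.3 at CT21. All 12 mice of the night stood above all 12 of the day, and JTK_cycle gave q = 0.000363. Here and below, q is that of JTK_cycle for a 24-h rhythm, not of a test between groups. In genes called rhythmic, a lack of overlap between times describes the values and adds no support. A cosine fit gave an amplitude of 0.75 ± 0.081 (standard error, n = 24) on the log2 scale, a 2.84-fold difference between peak and trough, with the peak at 17.5 ± 0.41 h. *Hyou1*, an HSP70-like exchange factor for BiP, swung furthest. It held 328, 333, 335 and 352 normalised counts at CT5 and 690.1, 959, 967 and 1212 at CT17 (amplitude 0.85 ± 0.089, 3.25-fold, peak at 16.9 ± 0.40 h, q = 0.000234).

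The other chaperones peaked within a few hours of these. *Sdf2l1*, a BiP-associated factor that keeps clients from aggregating, had 47.4, 52.6, 61.3 and 69.9 normalised counts at CT9 and 98.4, 134, 142 and 183 at CT17, and these groups did not overlap (2.68-fold by the fit, q = 4.65e-05). *Manf*, which binds BiP and is secreted under stress, had an amplitude of 0.61 ± 0.068 with the peak at 17.7 ± 0.42 h. The lectin chaperone *Calr* peaked later, at 19.8 ± 0.29 h, with 1584, 1696, 1908 and 2109.6 normalised counts at CT9 and 3996, 4029.8, 4135 and 4209 at CT21 (q = 5e-07). Its membrane-bound partner *Canx* had a smaller amplitude, 0.27 ± 0.041. *Hsp90b1*, the HSP90 of the ER, reached 0.44 ± 0.047, and the BiP co-chaperones *Dnajb11* and *Dnajc3* reached 0.28 ± 0.037 and 0.28 ± 0.041. *Dnajb9*, another co-chaperone of BiP that restrains IRE1, was not called (q = 1), with a largest group mean of 251 ± 18.02 (SD, n = 4) and a lowest of 194 ± 29.3.

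Among the isomerases, *Creld2*, a disulfide isomerase induced by ER stress, had the amplitude of a chaperone (0.77 ± 0.087, peak at 17.4 ± 0.43 h, q = 0.000549). *Pdia4* rose from 345, 347, 396 and 444 normalised counts at CT9 to 635, 691, 951 and 959.8 at CT17, without overlap (amplitude 0.53 ± 0.053, q = 1.32e-05). *Pdia6*, which acts with BiP, reached 0.43 ± 0.039 and peaked last of the group, at 21.3 ± 0.35 h. The abundant *Pdia3* and *P4hb* changed less, with amplitudes of 0.27 ± 0.033 and 0.22 ± 0.032 and peaks at 20.3 ± 0.47 h and 20.3 ± 0.54 h.

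Of the sensors and transcription factors, 3 of 7 were called. *Ern1* peaked at 22.9 ± 0.54 h (q = 0.000549) and *Ern2* at 3.69 ± 0.87 h (q = 0.00548), outside the range of the chaperones called rhythmic, whose peaks lay between 16.9 and 19.8 h. *Eif2ak3* (q = 0.114), *Atf6* (q = 0.1), *Xbp1* (q = 0.327) and *Atf4* (q = 1) were not called. *Xbp1*, whose spliced form turns on chaperone genes, had group means between 1154 ± 128 (SD, n = 4) at CT1 and 1402 ± 138 at CT17. *Ddit3*, the apoptosis-linked factor downstream of PERK, peaked before the chaperones, at 12.1 ± 0.91 h, with 27.6, 30.5, 38.1 and 41.8 normalised counts at CT1 and 48.4, 56.9, 67.2 and 70.0 at CT13, which did not overlap (q = 0.00382).

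In the degradation group, *Syvn1*, the ubiquitin ligase HRD1, rose from 169, 199.5, 253 and 261 normalised counts at CT5 to 376, 475, 476 and 496 at CT13 (amplitude 0.53 ± 0.076, peak at 15.8 ± 0.55 h, q = 0.000453). Its partner *Herpud1* peaked earlier than these chaperones, at 13.8 ± 0.39 h (q = 3.91e-06). *Edem1*, which extracts misfolded glycoproteins, was called at a smaller amplitude of 0.20 ± 0.045 (q = 0.0328), while the HRD1 adaptor *Sel1l* (q = 0.601), *Selenos* (q = 0.496) and *Derl3* (q = 1), components of the retrotranslocation complex, were not. Of translocation and export, the SEC61 subunits *Sec61a1* and *Sec61b* reached amplitudes of 0.25 ± 0.040 and 0.20 ± 0.053, the translocon-associated *Ssr1* 0.25 ± 0.033 and the signal peptidase subunit *Spcs2* 0.28 ± 0.036. The signal peptidase *Sec11c* (q = 0.0509) and the COPII coat gene *Sec24d* (q = 0.21) were not called. Of the 20 members with a promoter window that were rhythmic in Bmal1fl/fl mice, 8 held an ERSE. Among the 8 tested members with a window that were not called, 1 held one, *Derl3*. The E-box was held by 2 of these 20 and by 3 of these 8. The shares were not compared by a test.

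In Bmal1iec-/- mice 16 of 34 members were called rhythmic, where 14.7% of all genes tested were called, and all 16 were among the 24 of Bmal1fl/fl mice. The same 9 of 10 chaperones and 5 of 5 isomerases were called, and of the other roles *Syvn1* and *Ssr1*. The best phase lay between 16 and 22 h in 15 of the 16 (93.8%), against 37.7% of the 2154 rhythmic genes. Between 12 and 24 h the shares were 93.8% and 47.8%. *Hspa5* had 1293, 1403, 1708 and 1724 normalised counts at CT5 and 3423, 3600.4, 3776 and 4295 at CT17, without overlap (q = 0.00491), and its fitted amplitude was 0.61 ± 0.11 with the peak at 19.5 ± 0.68 h. *Hyou1* had 327, 342, 354 and 371 at CT5 and 802, 952, 1033 and 1171 at CT17 (amplitude 0.66 ± 0.10, peak at 18.5 ± 0.58 h, q = 0.000943). *Calr* reached 0.55 ± 0.078 with the peak at 21.3 ± 0.55 h. The 8 members called in Bmal1fl/fl mice only were *Ern1*, *Ern2*, *Ddit3*, *Herpud1*, *Edem1*, *Sec61a1*, *Sec61b* and *Spcs2*, with q between 0.0525 for *Herpud1* and 0.552 for *Sec61b* in Bmal1iec-/- mice. A call in 1 genotype and not in the other does not show a difference, which was tested separately. Without SV384 and SV385, 19 members were called in Bmal1iec-/- mice, where 15.3% of all genes tested were called.

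The fitted peak was later in Bmal1iec-/- mice for all 16 members rhythmic in both genotypes, by 0.812 to 2.69 h with a median of 1.82 h. Most genes that were rhythmic in both genotypes shared this direction (83.0% of 1713, median 1.39 h). Without SV384 and SV385 the fitted peak was later for 15 of the 16 members, with a median of 1.30 h against 1.20 h over all these genes. For *Hspa5* the shift was 1.93 h, or 1.33 h without the pair, and for *Dnajb11* 2.64 h or 2.05 h. Amplitudes were lower in Bmal1iec-/- mice for 11 of the 16 members (68.8%), and for 1210 of the 1713 genes (70.6%). Without the pair they were lower for 14 of the 16 (87.5%) and for 1299 of the 1713 (75.8%). In a test of the difference itself, 0 of these 16 passed. In that F test of genotype against the 24-h cosine and sine, 1 of 34 members passed, *Herpud1*, where 1.92% of all genes tested passed, and 14 had an unadjusted p under 0.05, as had 15.3% of all genes tested. Without the pair 3 of 34 members had one, against 10.3% of all genes tested, a share no larger than that of all genes. For *Hspa5* the adjusted p was 0.184 and for *Creld2*, next after *Herpud1*, 0.139. With SV400, a Bmal1iec-/- mouse at CT9, left out, *Hspa5* passed as well, 2 members in all. DESeq2's likelihood ratio test called *Herpud1* alone as well.

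**Figure D2:**
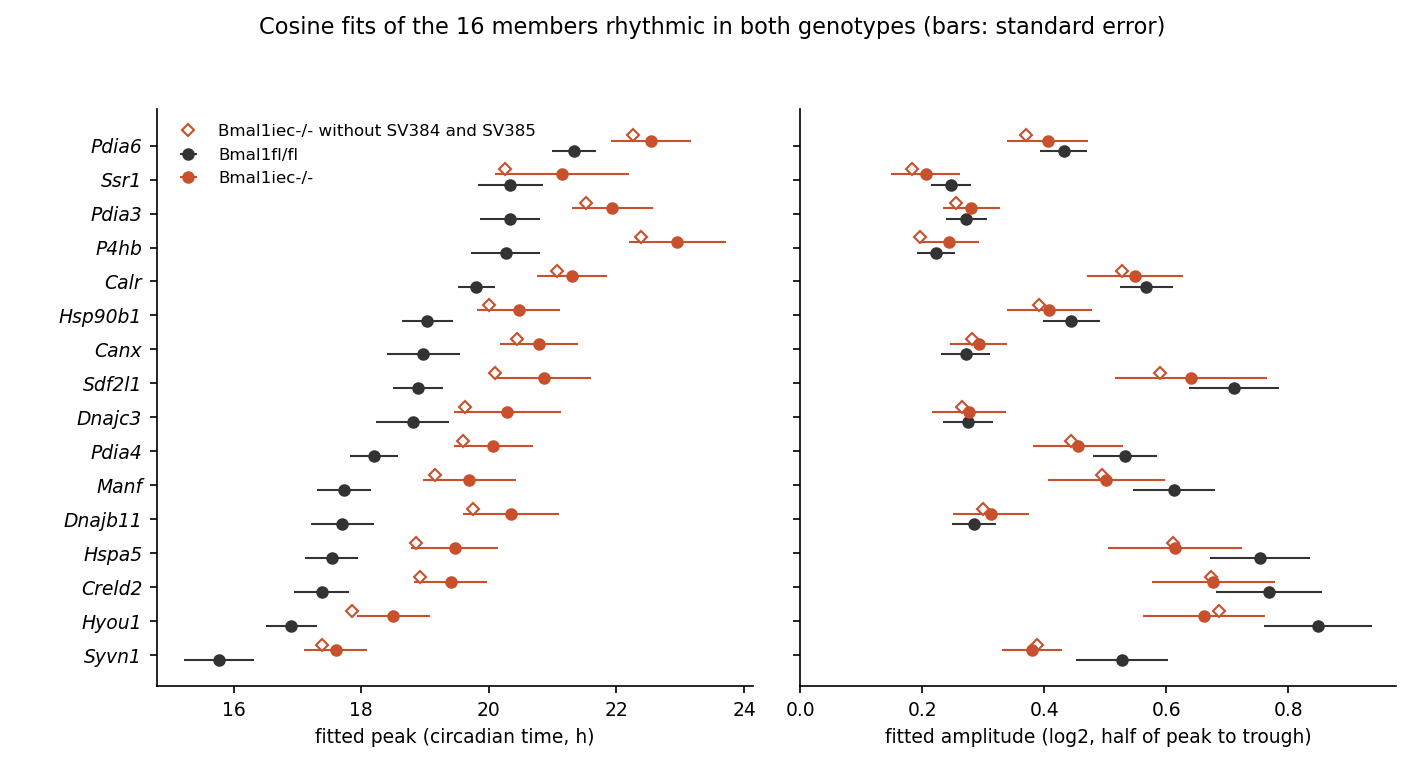
Fitted peak time (left, h) and amplitude (right, log2) of the 16 members rhythmic in both genotypes, with standard errors, ordered by the peak in Bmal1fl/fl mice. Filled points are the fits to 24 mice of each genotype and diamonds the fits without SV384 and SV385, and the Bmal1iec-/- peaks lie to the right of the Bmal1fl/fl peaks for all 16 members with 48 mice.

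*Herpud1* (ENSMUSG00000031770.16; chromosome 8, 94386438 to 94395377, GRCm38), which recruits substrates to the HRD1 ligase, was the member whose day course differed between genotypes (adjusted p = 0.00194, edgeR's quasi-likelihood test; 0.00681 without the pair). In Bmal1fl/fl mice it climbed through the day, with 388, 398, 428 and 496 normalised counts at CT1, 438, 444, 445 and 450.3 at CT5, 566, 576, 581 and 613 at CT9 and 628, 677, 699.9 and 749.8 at CT13. It then stood at 503, 615, 691 and 704 at CT17 and 454, 455, 542 and 549 at CT21. In Bmal1iec-/- mice it was 432, 444, 468 and 469.6 at CT1, 330.1, 371, 430.1 and 458 at CT5, 417, 449, 458 and 463 at CT9, 447, 463, 489.7 and 496 at CT13, 456, 490.4, 493 and 517 at CT17 and 436, 448, 461 and 493 at CT21. The genotypes overlapped at CT1, CT5, CT17 and CT21, while at CT9 and CT13 every Bmal1fl/fl mouse was higher. The fitted amplitude was 0.36 ± 0.037 in Bmal1fl/fl and 0.12 ± 0.032 in Bmal1iec-/- mice. Across all circadian times *Herpud1* had a log2 fold change of -0.25 with a standard error of 0.046 (adjusted p = 8.78e-05). By time, it fell by 0.38 at CT9, 0.54 at CT13 and 0.36 at CT17 (adjusted p = 0.0131, 7.27e-05 and 0.0291).

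Across the whole day few members differed in level between genotypes. With circadian time in the model, 4 of 34 had an adjusted p under 0.05, where 12% of all genes tested did. The 4 were *Ern1* and *Spcs2*, higher in Bmal1iec-/- mice, and *Herpud1* and *Ern2*, lower. Of the members, 0 passed a fold change of 1.5 as well, where 1.35% of all genes tested did, and DESeq2's Wald test called the same 4 at an adjusted p under 0.05. The log2 fold change was positive in 24 of 34 members, with a median of 0.061, against 7343 of 14618 genes and a median of 0.00061. All 10 chaperones had a positive value, between 0.033 for *Dnajb9* and 0.20 for *Sdf2l1*, and 0 of them passed (1 had an unadjusted p under 0.05, and 0 were called by DESeq2). For *Hspa5* the value was 0.15 (standard error 0.10, adjusted p = 0.341).

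The 2 IRE1 genes moved in opposite directions. *Ern1* (ENSMUSG00000020715.9; chromosome 11, 106394650 to 106487852, GRCm38) had 204, 205, 215 and 245 normalised counts in Bmal1fl/fl and 265, 306, 307 and 328 in Bmal1iec-/- mice at CT13, and 241, 245, 248 and 288 against 300.5, 328, 344 and 401 at CT5. At both times the genotypes did not overlap. At CT9 the counts were 193, 223, 231 and 247 against 253, 303, 313 and 324, at CT17 232, 257, 296 and 298 against 332, 335, 363 and 378 and at CT21 263, 288, 313 and 328 against 328, 339.6, 371 and 409. The genotypes did not overlap at CT9 and CT17 either, and met at CT21. At CT1, where the Bmal1fl/fl mean was highest, the counts were 281, 327, 328 and 329 against 276, 294, 326 and 358 and overlapped. Across the day *Ern1* was higher by 0.33 (standard error 0.046, adjusted p = 6.79e-07), and per length *Ern1* stood at 8.46 ± 1.41 RPKM in Bmal1fl/fl and 10.4 ± 1.30 RPKM in Bmal1iec-/- mice (SD, n = 24). *Ern2* (ENSMUSG00000030866.8; chromosome 7, 122169893 to 122186207, GRCm38) was lower, with a log2 fold change of -0.21 and a standard error of 0.052 (adjusted p = 0.00568), and of -0.16 without the pair (adjusted p = 0.00988). Its counts at CT1 were 696, 848, 852 and 936 in Bmal1fl/fl and 434, 495, 673 and 705 in Bmal1iec-/- mice, the lower 2 of which were SV385 and SV384. At CT13 they were 572, 617, 659 and 679.8 against 503, 506, 508 and 609, and at CT21 the ranges overlapped. *Ern2* belongs to mucus-secreting epithelium, and the sum of 7 goblet cell markers was 57137 to 103000.1 in Bmal1fl/fl and 49360.2 to 100812 normalised counts in Bmal1iec-/- mice, at CT1 79701 to 90927 against 49360.2 to 66865. *Muc2*, the gel-forming mucin, made up most of that sum and fell by 0.92 at CT1 on the log2 scale (adjusted p = 0.000706), or had a log2 fold change of -0.63 without the pair (adjusted p = 0.141). The other 6 markers had positive values at CT1, and 3 of them passed as higher, *Zg16*, *Spink4* and *Spdef*. Across the day 3 of the 7 were higher, *Zg16*, *Spink4* and *Fcgbp*, and *Clca1* was lower. The part of these cells in the result was not tested.

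**Figure D3:**
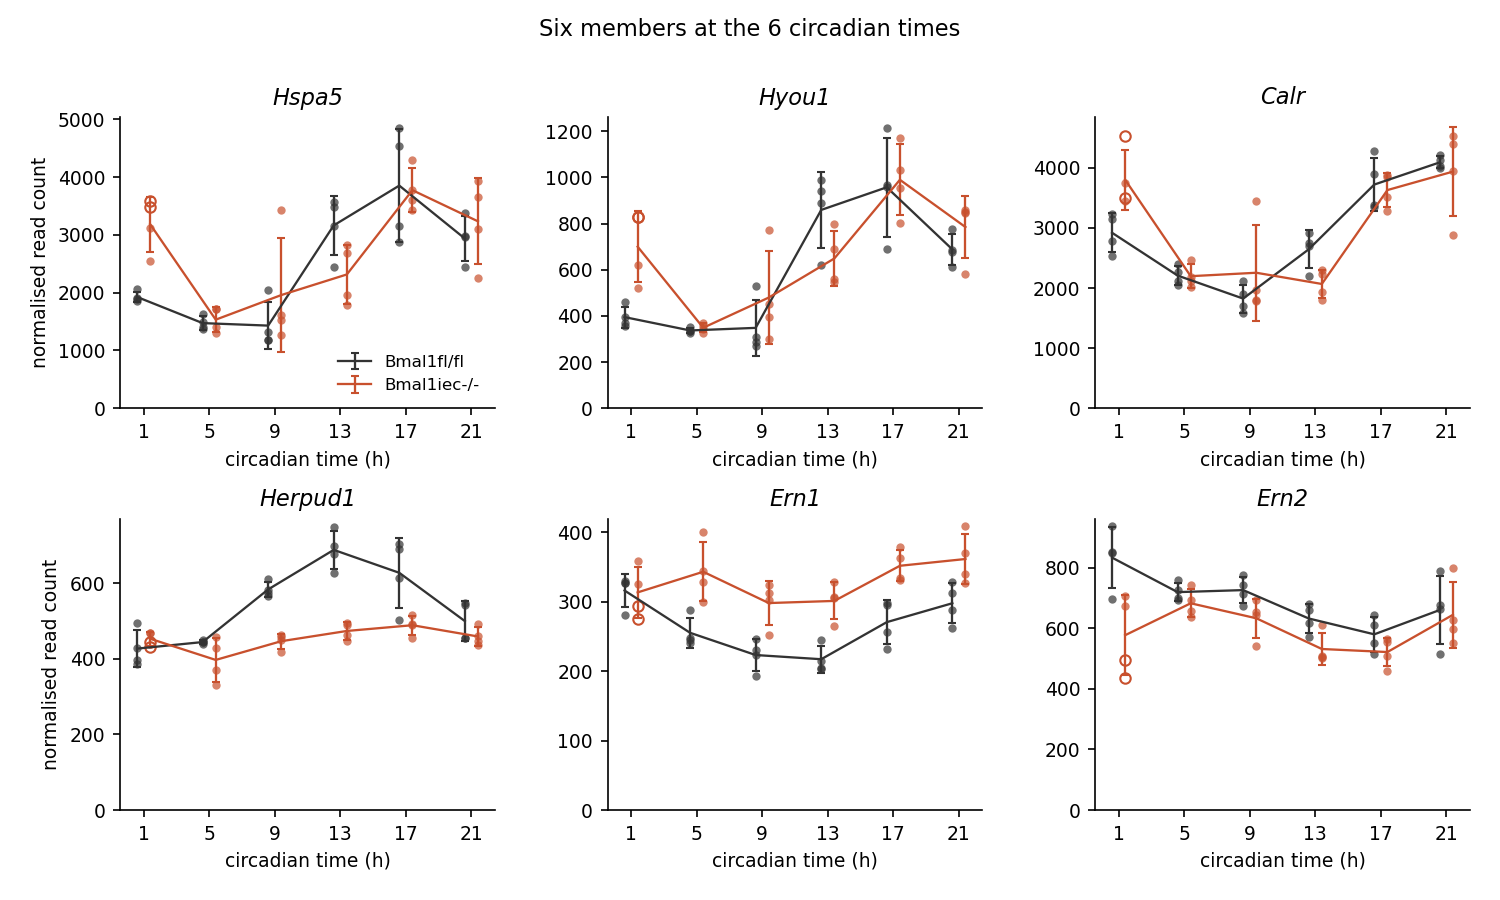
Normalised read counts of 6 members in every mouse against circadian time (h), grey for Bmal1fl/fl and orange for Bmal1iec-/- mice, with group means joined by lines and bars of 1 SD (n = 4). Open circles are SV384 and SV385. *Herpud1* is nearly flat and *Ern1* higher at all times but CT1 in Bmal1iec-/- mice, and in *Hspa5*, *Hyou1* and *Calr* the largest gap between group means in favour of Bmal1iec-/- mice is at CT1.

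*Spcs2*, a subunit of the signal peptidase, was higher by 0.15 (standard error 0.047, adjusted p = 0.0272). It had 336, 351, 352 and 366 normalised counts in Bmal1fl/fl and 399.5, 442, 493 and 561 in Bmal1iec-/- mice at CT1, without overlap. At CT9 it had 249, 276, 278 and 342 against 299, 352, 370.1 and 456. The genotypes overlapped at CT9 and at every other time but CT1. This call rested on few mice. Its value was 0.11 (adjusted p = 0.0951) without SV384 and SV385, and the adjusted p was 0.0512 without SV385 alone, 0.0517 without SV400, 0.225 without CT1 and 0.141 without CT9. The calls of *Ern1*, *Ern2* and *Herpud1* held with each mouse and each circadian time left out in turn. Members that passed in addition were *Hyou1* and *Sec61a1* without CT13, *Atf4* without CT5, *Pdia6* without SV471 and *Xbp1* without SV453.

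Split by period, 7 members passed by day (7.3% of all genes tested) and 2 by night (3.38%). By day *Sec61b* (log2 fold change 0.40), *Hyou1* (0.50), *Spcs2* (0.27), *Ern1* (0.27), *Sec61a1* (0.24) and *Xbp1* (0.16) were higher in Bmal1iec-/- mice and *Ern2* (-0.27) was lower, with adjusted p between 0.0189 and 0.0411. By night *Ern1* (0.37, adjusted p = 0.00376) and *Herpud1* (-0.35, adjusted p = 0.00212) passed. The log2 fold change was positive in 27 of 34 members by day and in 8 by night, against 7083 and 7511 of 14618 genes tested. Without SV384 and SV385 it was positive in 25 members by day and in 8 by night. The difference between day and night itself passed for 0 of 34 members in edgeR (0.137% of all genes tested), with 10 at an unadjusted p under 0.05 (against 13.1% of all genes tested), and for 0 in DESeq2. Without SV384 and SV385 the day count was 0 of 34, where 2.59% of all genes tested passed, and 1 member had an unadjusted p under 0.05 for the difference between day and night (8.74% of all genes tested). The day count was also 0 without SV385 alone, 4 without any 1 of SV384, SV400, SV401, SV412, SV415, SV443, SV447 and SV479, and 11 without SV418. The shares of all genes tested that passed in these fits are not given here. *Hspa5* was among those that passed by day without any 1 of SV402, SV410, SV418, SV420, SV439, SV440, SV469 and SV478.

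The tests at single circadian times, which were added after the data had been seen, called more members at CT1 than at any other time. There 17 of 34 members passed, where 24.7% of all genes tested did. Of these, 16 were higher in Bmal1iec-/- mice, where 13.8% of all genes tested passed in that direction, and *Ern2* was lower. The 16 held 8 of 10 chaperones, 3 of 5 isomerases (*Pdia4*, *Pdia6* and *Creld2*), *Xbp1*, *Atf4*, *Sec61a1*, *Sec61b* and *Spcs2*, and 0 of 6 degradation genes (1 of the 6 had an unadjusted p under 0.05). *Hspa5* had 1861, 1884, 1901 and 2055 normalised counts in Bmal1fl/fl and 2541, 3121, 3485 and 3590.2 in Bmal1iec-/- mice, without overlap (log2 fold change 0.72, standard error 0.21, adjusted p = 0.00882). *Hyou1* had 356, 369, 395 and 459 against 521, 622, 827 and 829.8 (0.82, adjusted p = 0.0028) and *Sdf2l1* 86.0, 86.9, 90.5 and 92.4 against 108, 152, 162 and 227 (0.86, adjusted p = 0.0049). The channel subunit *Sec61b* showed the smallest adjusted p, 0.000509, with 146, 152, 162 and 169.6 against 197, 221, 282 and 391 (0.78). In each of these 4 genes all Bmal1iec-/- mice stood above all Bmal1fl/fl mice. The 4 were taken from the members that passed, so this separation describes their values and adds no support. The share of all genes without overlap is not given here. *Xbp1*, which was called rhythmic in neither genotype, had 1066, 1094, 1112 and 1344 against 1367, 1405, 1471 and 1486 at CT1 (0.31, adjusted p = 0.00283).

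These calls did not hold without the pair that stood apart. Without SV384 and SV385, 0 of 34 members passed at CT1 in edgeR, where 1.21% of all genes tested did, and 13 had an unadjusted p under 0.05, as had 16.3% of all genes tested. Without SV385 alone 9 passed, and without SV384 alone 14, and between 13 and 19 with any other mouse left out. For these fits the shares of all genes tested are not given. DESeq2 was not run at single times. With only SV479 and SV480 left as Bmal1iec-/- mice at CT1, the log2 fold change was still positive in 28 of 34 members (30 with all mice). It was positive in 7323 of 15073 genes tested (6951 of 14618 with all mice). The median log2 fold change without the pair was 0.17 over the members and -0.010 over all genes tested. For *Hspa5* the value was then 0.55 (adjusted p = 0.256), with counts of 3121 and 2541. *Manf* went from 0.69 to 0.60 and *Xbp1* was at 0.31 in both (adjusted p = 0.144 and 0.0692). *Sec61b* went from 0.78 to 0.40, *P4hb* from 0.24 to 0.022 and *Sec61a1* from 0.28 to 0.093. Cell type markers moved with the result at CT1. The sum of 6 smooth muscle markers ran from 16107 to 21196 normalised counts in Bmal1fl/fl and from 3391 to 14663 in Bmal1iec-/- mice, and that of 7 epithelial markers from 48751 to 65845 and from 66823 to 98149.8. The 6 plasma cell markers summed to 3528 to 8514 against 7262 to 11496, and the plasma cell genes *Mzb1* and *Tnfrsf17* did not pass the filter. The 6 fibroblast markers summed to 5243 to 5865 against 1612 to 6173 and the 6 markers of follicle lymphocytes to 27.6 to 40.6 against 19.7 to 39.2. Marker by marker at CT1, 3 of 6 smooth muscle and 3 of 6 fibroblast markers passed as lower, 5 of 7 epithelial markers as higher and 1, *Slc26a3*, as lower, 1 of the 4 plasma cell markers that passed the filter, *Igha*, as higher, and 0 of the 4 tested markers of follicle lymphocytes (0 had an unadjusted p under 0.05). Mitochondrial genes took 5.73 to 6.22% and 6.21 to 7.41% of the counts. The part of these in the result was not tested.

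**Figure D4:**
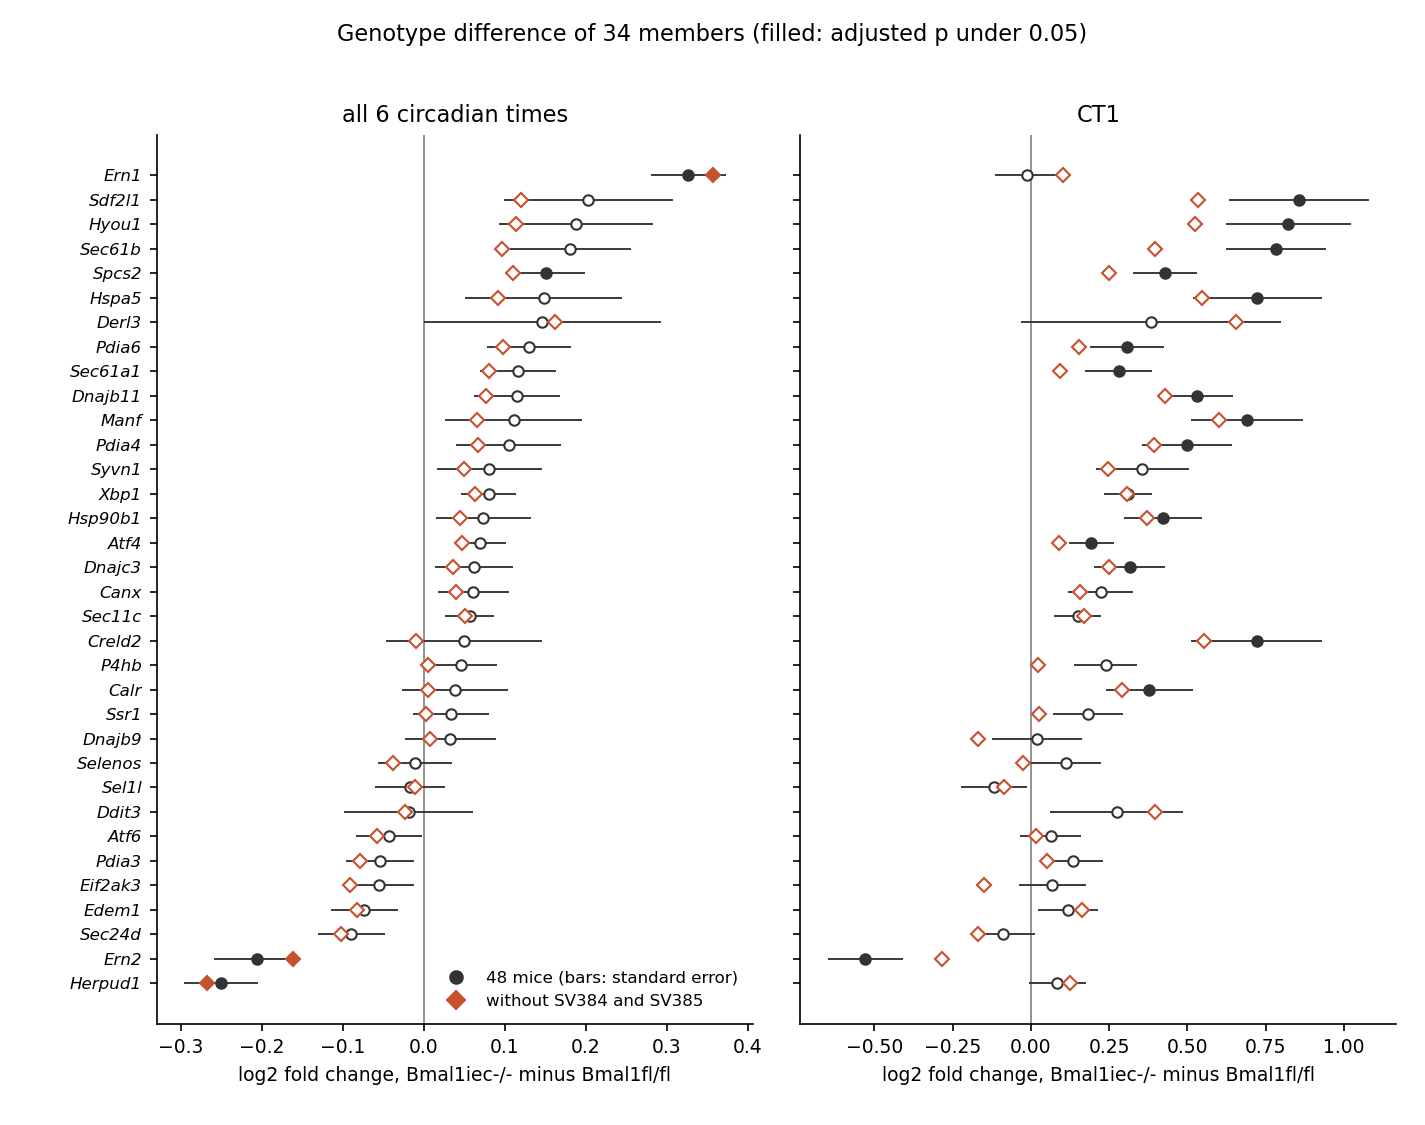
Log2 fold change between genotypes of 34 members over all 6 circadian times (left) and at CT1 (right), with 48 mice (circles, bars of 1 standard error) and without SV384 and SV385 (diamonds), filled where the adjusted p was under 0.05. At CT1, 17 circles and 0 diamonds are filled, and most diamonds lie on the same side of 0 as their circles.

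At the other circadian times few members passed. At CT5 it was 1 member, *Ern1* (0.376% of all genes tested passed), at CT9 *Ern1* and *Herpud1* (1.46%), at CT13 the same 2 (3.58%), at CT17 *Herpud1* (0.876%) and at CT21 0 members (0.328%; 1 had an unadjusted p under 0.05). *Ern1* was higher by 0.42 at CT5, 0.43 at CT9 and 0.47 at CT13 (adjusted p = 0.0411, 0.0166 and 0.00367), and by 0.38 at CT17 (adjusted p = 0.0534). Its call at CT5 was lost without any 1 of SV420, SV434, SV438, SV440, SV441, SV442, SV443, SV447, SV448, SV455, SV477, SV478 and SV481, and at CT9 without any 1 of SV400, SV401, SV402 and SV418. The call of *Herpud1* at CT9 was lost without SV418, where *Pdia6* passed instead. At CT17 *Ern1* passed too without SV384 and SV385, and 2 members passed without any 1 of SV384, SV410, SV469, SV478 and SV479, whereas 0 passed without any 1 of SV399, SV416, SV438, SV453 and SV481, and without SV398 *Ern1* passed in place of *Herpud1*. *Spcs2* passed at CT9 without the pair and without any 1 of SV385, SV410, SV420, SV445, SV471 and SV480, and *Creld2* at CT13 without SV421. At CT13 the log2 fold change was positive in 4 of 34 members, with a median of -0.17, against 7185 of 14618 genes tested and a median of -0.0048. There *Hspa5* had 2437, 3156, 3486 and 3576 normalised counts in Bmal1fl/fl and 1791, 1960.2, 2679.8 and 2828 in Bmal1iec-/- mice (-0.45, adjusted p = 0.257), and the groups overlapped.

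Some mice were high or low in many members at once. SV400 had the highest value of its 4 Bmal1iec-/- mice at CT9 in 23 of 34 members, with *Hspa5* at 3424 normalised counts against 1618 in the next, and *Calr* at 3449 against 1969.6. SV420 was highest of the Bmal1fl/fl mice at CT9 in 19 members, and SV421 lowest at CT13 in 25. SV396, also at CT13, was highest in 22. Of the Bmal1iec-/- mice at CT1, SV385 was highest in 21 members and SV480 lowest in 22. SV471 was lowest of the Bmal1iec-/- mice at CT21 in 21, and SV416 at CT17 in 20. The matching counts over all genes tested are not given here.

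A rhythm of 12 h was looked for as well, since such rhythms of ER stress genes have been described in liver. In edgeR 0 of 34 members had a 12-h component beside the 24-h one (0.965% of all genes tested), and 3 had an unadjusted p under 0.05, as had 16.5% of all genes tested. *Dnajb9* came nearest (adjusted p = 0.0828), and DESeq2's likelihood ratio test called it alone (adjusted p = 0.0389), as did edgeR without SV400 or without SV418. Its group means in Bmal1fl/fl mice were 247 ± 49.7 at CT1, 205 ± 27.2 at CT5, 207 ± 15.8 at CT9, 251 ± 18.02 at CT13, 241 ± 35.8 at CT17 and 194 ± 29.3 at CT21 (SD, n = 4). With 6 times spaced by 4 h, a 12-h cycle was sampled at 3 points.

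The wider ER machinery was described with a list of 98 further tested genes. In Bmal1fl/fl mice 52 of the 98 were called rhythmic (40.5% of all genes tested) and in Bmal1iec-/- mice 29 (14.7%). Across the day 16 of 98 differed between genotypes, a share near the 12% of all genes tested, 14 higher and 2 lower in Bmal1iec-/- mice (17 of 99 without the pair, 12 higher and 5 lower). Of the 14 higher genes, 7 were among the 22 genes of translocation and glycosylation. At CT1 alone 42 of 98 passed with all mice (24.7% of all genes tested) and 0 of 99 without the pair (1.21%). The cargo receptor *Tmed3* (log2 fold change 0.21, adjusted p = 4.41e-05), the oligosaccharyltransferase subunits *Ddost* (0.22, adjusted p = 0.000121) and *Rpn2* (0.17, adjusted p = 0.00101) and the translocon-associated *Ssr4* (0.20, adjusted p = 0.00154) were higher, and the thioredoxin-domain gene *Txndc5* fell by 0.13 (adjusted p = 0.000972). All 5 passed without the pair, with log2 values between -0.15 and 0.18. *Creb3l3*, an ER-bound transcription factor, fell by 0.66 (adjusted p = 0.0485; fell by 0.98 with an adjusted p of 1.11e-05 without the pair). Its rhythm also differed (adjusted p = 0.0129), but not past the threshold without the pair (0.236). Of 18 genes of the amino acid response, downstream of ATF4, 1 differed across the day, the glycyl-tRNA synthetase *Gars* (0.19, adjusted p = 0.000578; 0.00155 without the pair), and 1 in rhythm, the asparaginyl-tRNA synthetase *Nars* (adjusted p = 0.0493; 0.221 without the pair).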

How the data were processed

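RNA was taken from colon tissue of 48 mice, and poly(A) libraries were made with TruSeq Stranded mRNA. The deposited table holds whole-number read counts per gene: the authors trimmed reads with Trimmomatic 0.39, aligned them to mm10 with STAR 2.7.5c, converted formats with SAMtools 1.3.1 and counted exonic reads with a MAPQ of at least 4 by featureCounts 1.4.6. The strand setting of that counting is not given in the sources used here, so that genes with an antisense partner could hold reads of both. Positions and exon lengths came from the annotation of the same build (GRCm38), and promoter windows from RefSeq. The 35 genes and all lists were chosen with earlier results of these data known, so that a list's counts are a description. Overlap between groups of mice is likewise a description, given without the share over all genes.

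From the counts as deposited, genes were filtered with filterByExpr on the 12 groups, scaled by TMM and tested with edgeR 4.0.16 (quasi-likelihood F test, R 4.3.3), with Benjamini-Hochberg adjustment over 14618 genes and a threshold of 0.05. The models held genotype and circadian time, genotype within day and night, genotype with a 24-h cosine and sine, a 12-h cosine and sine in addition, or all 12 groups. To show levels, each mouse's counts were scaled by its DESeq2 1.42.0 size factor (normalised read counts), and RPKM were computed per exon length. JTK_cycle was run in an own implementation (period of 24 h, 12 phases spaced by 2 h, exact null distribution, Bonferroni over phases, Benjamini-Hochberg over genes). Amplitudes and peaks came from least squares on log2(normalised count + 0.5), with no test. These fits, like the tests at single circadian times, were added after the data had been seen. Genes outside the 35 were named as the 5 with the smallest adjusted p per direction. Alternatives were DESeq2, other scalings, no filter on low counts, no time term, each mouse, each time or the pair SV384 and SV385 left out. The scripts were tested on simulated counts with known changes. No source ties mice to a litter or cage, and the tests treated each mouse as an independent replicate.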

Additional observations from a re-analysis of the deposited data

Results flagged for a closer look

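In each group of 4 mice the highest and the lowest value of every tested member were compared with the rest by Dixon's ratio at its 95% critical value. Of 408 such groups, 29 (7.11%) held a mouse past it, where chance gives about 1 in 20 groups. The values below are normalised read counts, each set against the range of the other 3 mice of the group, and no cause was tested for any of them.

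Some mice were set apart in several members at once. Replicate SV400 (Bmal1iec-/- CT9) had *Calr* at 3449 against 1792 to 1969.6, *Hspa5* at 3424 against 1260.1 to 1618, *Manf* at 430.3 against 211 to 227, and *Sdf2l1* at 151 against 55.9 to 71.1. In Bmal1fl/fl CT9, SV420 had *Hspa5* at 2039.7 against 1178 to 1319.5, and *Hyou1* at 529 against 269 to 307. Bmal1fl/fl CT13 replicate SV421 showed *Manf* at 279 against 391 to 414, and *Sel1l* at 519 against 634 to 657. SV400 had the highest value of its group in 23 of 34 members and SV421 the lowest in 25.

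Other mice were set apart in 1 or 2 members. Replicate SV469 (Bmal1fl/fl CT1) had *Ern1* at 281 against 327 to 329, and *Xbp1* at 1344 against 1066 to 1112. In Bmal1fl/fl CT17, SV417 had *Ddit3* at 31.6 against 48.3 to 51.6, and *P4hb* at 3559 against 4232 to 4296. Bmal1fl/fl CT21 replicate SV441 showed *Edem1* at 843 against 761 to 768, and *Selenos* at 259 against 297 to 302. Replicate SV476 (Bmal1fl/fl CT21) had *Sec61a1* at 833 against 779.8 to 783, and *Ssr1* at 958 against 847 to 854. In Bmal1fl/fl CT5, SV443 had *Atf4* at 622 against 740.4 to 762. Bmal1fl/fl CT5 replicate SV446 showed *Ern1* at 288 against 241 to 248. Replicate SV447 (Bmal1fl/fl CT5) had *Ssr1* at 740.4 against 665 to 674. In Bmal1iec-/- CT13, SV448 had *Ern2* at 609 against 503 to 508. Bmal1iec-/- CT17 replicate SV399 showed *Pdia6* at 1318 against 1131 to 1143. Replicate SV416 (Bmal1iec-/- CT17) had *Atf6* at 358 against 423 to 436. In Bmal1iec-/- CT21, SV470 had *Xbp1* at 1213 against 1462 to 1501. Bmal1iec-/- CT21 replicate SV471 showed *Hyou1* at 583 against 847 to 857. Replicate SV439 (Bmal1iec-/- CT5) had *Atf4* at 691 against 655 to 657, and *Sec61b* at 145 against 167 to 170.0. In Bmal1iec-/- CT5, SV440 had *Canx* at 1422 against 1489 to 1501. Bmal1iec-/- CT5 replicate SV477 showed *P4hb* at 3877 against 3509 to 3539. Replicate SV410 (Bmal1iec-/- CT9) had *Ddit3* at 83.6 against 41.6 to 48.1.

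The rhythm of *Herpud1* differed between Bmal1fl/fl and Bmal1iec-/- mice in the F test of genotype against the 24-h cosine and sine (adjusted p = 0.00194 over 48 mice, edgeR's quasi-likelihood test), with an adjusted p between 0.000208 and 0.00386 over the 48 fits that left out 1 mouse each.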

How the results depend on the processing

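Across the day *Ern1*, *Ern2* and *Herpud1* kept their direction and passed under other scalings, no filter on low counts, DESeq2, no circadian time term and each circadian time or the pair SV384 and SV385 left out, with log2 fold changes of 0.31 to 0.35, -0.23 to -0.18 and -0.27 to -0.23 when 1 mouse was left out. *Spcs2* (0.13 to 0.17) kept its direction but not its call in 4 of 12 such settings. The count of 4 members became 0 against a fold of 1.5 (glmTreat) and ran from 3 to 5 with 1 mouse left out; 0 passed the threshold together with a fold of 1.5 in all of these.

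The other counts rested more on single mice. For fits that left out 1 mouse, the share of all genes tested that passed is not given. Whether such changes were particular to the members was therefore not tested. By day, 7 became 1 without a filter on low counts and 0 without the pair, and ran from 0 to 11 with 1 mouse left out; by night the count was 2 in all settings, and for the difference between day and night 0. The difference in rhythm gave 1 to 2 members with 1 mouse left out. A 12-h component gave 1 member in place of 0 without the filter and in DESeq2, and 0 to 1 with 1 mouse left out. Without the pair CT1 gave 0 in place of 17 and CT17 gave 2 in place of 1; without the filter CT5 gave 0 in place of 1, CT9 gave 6 and CT13 gave 6 in place of 2 each, and CT17 gave 0. With 1 mouse left out, CT1 gave 9 to 19 members, CT5 0 to 1, CT9 1 to 3, CT13 2 to 3, CT17 0 to 2 and CT21 0. Rhythmic members numbered 22 to 27 in Bmal1fl/fl and 13 to 22 in Bmal1iec-/- mice over all alternatives. The cause of these changes was not tested. No paired analysis was possible because the labels give each mouse its own number, shared by no other group.

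Depth limits the low members: *Trib3* was not tested, and *Derl3* and *Ddit3* rest on 4 to 18 and 27 to 74 counts per mouse.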
